A study of Drosophila melanogaster with 6 samples.

Results

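The genes that encode the proteins of the cytoplasmic ribosome were examined for binding of CAP-D3, a subunit of the Condensin II complex, in Drosophila cells. Members were the protein-coding genes of the Release 6 annotation whose symbol is RpL or RpS followed by a digit, together with RpLP0, RpLP1 and RpLP2, and symbols that contain -like were left out. This rule gave 87 of the 13922 protein-coding genes on chromosomes 2L, 2R, 3L, 3R, 4 and X, 50 for the large and 37 for the small ribosomal subunit. The samples were dCAP-D3 ChIP with the antibody YZ384 (2 samples), ChIP with normal rabbit IgG (2 samples) and input chromatin (2 samples). According to the labels, all were S2R+ cells, a line of embryonic origin, with the strain given as Oregon R, and chromatin was digested with micrococcal nuclease. The paper instead names S2 cells, and it reports more separate ChIP experiments per antibody than there are samples here. No further treatment or genotype distinguished the groups. The authors deposited 1 list of peaks per antibody, each called against input, so that no value for a single experiment could be compared and the errors below cover counting only. Each peak has a MACS score, which is a p-value or q-value on the −log10 scale. The CAP-D3 list held 22108 peaks with a median score of 9.16, and the IgG list held 3915 peaks with a median score of 6.88. The lowest score was 2.0 in both lists, and 9254 of the CAP-D3 peaks (41.9%) scored 10 or more. The paper reports fewer CAP-D3 binding sites, given with a p-value cutoff. Every deposited peak was counted here unless a minimum score is given. Without read counts the sequencing depth is unknown, so numbers of peaks are not measures of relative binding between the antibodies.

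Ribosomal protein genes encode the small, mostly basic proteins that fold around ribosomal RNA. They are transcribed strongly in growing cells, and in Drosophila many have promoters with a pyrimidine-rich initiator, the TCT motif. Loss of a copy of many of these genes causes the Minute phenotype of slow development and thin bristles. Many also carry genes for small nucleolar RNAs (snoRNAs), which guide the modification of ribosomal RNA, within their introns. Condensins organize chromosomes in mitosis, and in several organisms they have been found near highly transcribed genes.

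CAP-D3 peaks lay at a minority of the ribosomal protein genes. A gene was counted when a peak overlapped its span, extended by 1000 bp on both sides, by 1 bp or more. Of the 87 genes, 35 had at least 1 CAP-D3 peak (40.2%, 95% Wilson interval 30.6 to 50.7%), against 60.9% of all protein-coding genes. Ribosomal protein genes are short, with a median span of 1333 bp, against 2163 bp for all protein-coding genes. Therefore, each gene was set beside the 50 other protein-coding genes nearest to it in length on the same chromosome. The mean share among these was 48.7%, and 48.6% of the 3548 distinct genes used in this way had a CAP-D3 peak. The share for similar-length genes lay inside the interval of the ribosomal protein genes. With IgG, 2 of the 87 genes had a peak (2.30%, 0.633 to 8.0%), against 15.9% of all protein-coding genes, 7.69% of the distinct similar-length genes and a mean of 7.56% over the matched sets. This value, too, lay inside the interval of the ribosomal protein genes. With this window and this comparison, neither difference was larger than counting error, but that depended on both choices. Against genes of similar length on any chromosome, the comparison values were 52.3% for CAP-D3 and 8.53% for IgG, both just above the interval. With the window extended by 2000 bp, 3 of the 87 genes had an IgG peak (3.45%, 1.18 to 9.65%), against 12.0% of similar-length genes, and with 5000 bp 9 had one (10.3%, 5.54 to 18.5%), against 24.5%, so that the value lay above the interval in both cases. For CAP-D3 it lay inside the interval at both widths.

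Counted by peaks, 46 CAP-D3 peaks met the extended spans, and each of them met a single ribosomal protein gene. No peak was shared between neighboring members, including RpL12 and RpL39, which overlap, and RpS14a and RpS14b, which are 220 bp apart, because none of these 4 genes had a peak. The merged windows held 155 CAP-D3 peaks per Mb (95% Poisson interval 113 to 207), against 203 in the windows of similar-length genes and 165 over the 6 chromosomes as a whole. For IgG the windows held 6.73 peaks per Mb (0.816 to 24.3), against 22.9 in the windows of similar-length genes and 29.1 over the chromosomes. A lone peak was the usual case, found at 27 genes, while 6 genes had 2 peaks, RpL6 had 3 and RpL3 had 4. Genes with 2 or more peaks made up 9.20% of the ribosomal protein genes (Wilson interval 4.73 to 17.1%), against 17.2% of similar-length genes, which lies just above that interval.

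The peaks at ribosomal protein genes had scores like those of the whole CAP-D3 list. Their scores ran between 2.81 and 13.06 with a median of 9.325, against 9.16 in the whole CAP-D3 list. A score of 10 was reached by 21 of the 46 peaks (45.7%, Wilson interval 32.2 to 59.8%), against 41.9% of the whole list. These 21 peaks lay at 18 genes, or 20.7% (13.5 to 30.4%), against 36.8% of all protein-coding genes, 24.9% of the distinct similar-length genes and a mean of 24.7% over the matched sets. No ribosomal protein gene had a peak with a score of 20 or more, which allows a share of up to 3.45%, and a mean of 1.31% of similar-length genes had one. For IgG, 1 member reached a score of 10 (1.15%, 0.203 to 6.23%), against 4.02% of all protein-coding genes and 1.55% of the distinct similar-length genes. They spanned 250 to 775 bp, with a median of 329 bp, against a median of 324 bp in the whole list. Of the 46 peaks, 2 overlapped a peak of the IgG list (4.35%, Wilson interval 1.20 to 14.5%), against 13.9% of all CAP-D3 peaks.

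**Figure D1:**
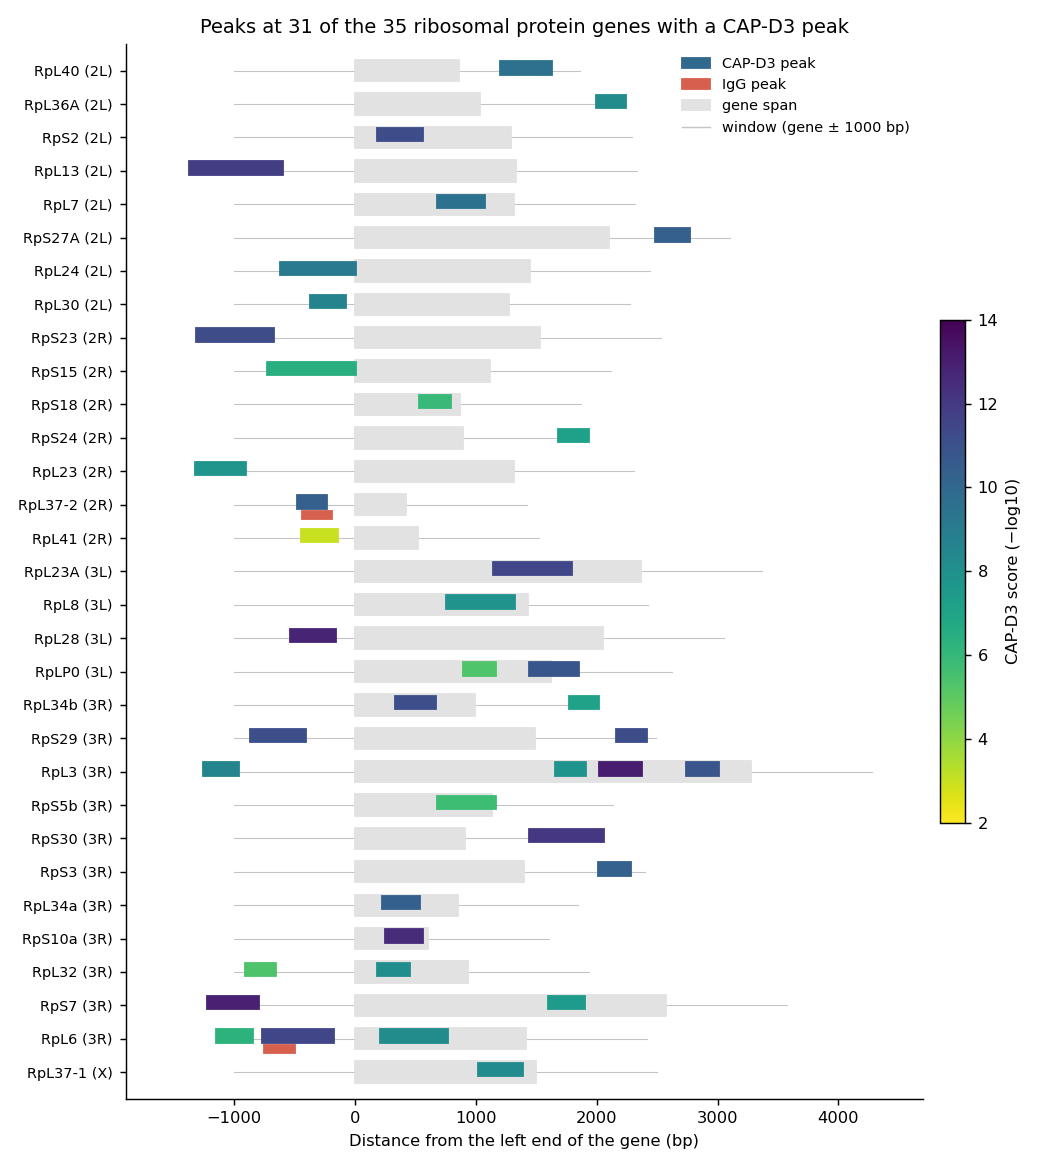
Position of each peak at 31 of the 35 ribosomal protein genes with a CAP-D3 peak, as distance in bp from the end of the gene with the lower coordinate (strand was not used). Gray boxes are gene spans, thin lines the windows of 1000 bp on both sides, upper boxes CAP-D3 peaks colored by score, and red boxes IgG peaks, which are present at RpL37-2 and RpL6 only.

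Among large subunit genes, RpL3 had the highest score of all members. RpL3, whose protein reaches close to the peptidyl transferase center, had 3 peaks inside the gene and another in its flank. The strongest, with a score of 13.06, lay on 3R from 11223912 to 11224265, and 19.1% of all CAP-D3 peaks scored higher. The others inside the gene extended from 11223551 to 11223805 (score 7.80) and from 11224629 to 11224906 (score 10.86). The midpoint of the peak with the score of 7.80 fell in a snoRNA gene, snoRNA:Psi28S-291, within RpL3. The flanking peak, from 11220632 to 11220932 with a score of 8.53, had its midpoint in the neighboring gene CG6693. RpL3 was 3280 bp long, and 82.0% of the 50 genes nearest to it in length had at least 1 CAP-D3 peak, so a peak at a gene of this length is common. The nearest IgG peak was 32607 bp away.

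RpL6 had the next highest number of peaks, 3, of which only the one from 31594998 to 31595560 on 3R (score 8.20) lay in the gene. The 2 others had midpoints in the neighboring gene CG1774. The stronger of these, from 31594021 to 31594615 with a score of 11.48, contained an IgG peak of 258 bp from 31594035 to 31594292 with a score of 9.22. The weaker one extended from 31593644 to 31593943 with a score of 6.27. The highest score at RpL6 therefore belonged to a region that was also recovered with IgG. RpL37-2, the short gene of a pair of paralogs, was the other member with an IgG peak. Its CAP-D3 peak lay on 2R from 23099577 to 23099826 (score 10.40) and shared 212 bp with an IgG peak from 23099615 to 23099864 (score 11.25). Neither peak touched the gene, and both had their midpoint outside all annotated genes.

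RpL28 and RpL13 had high-scoring peaks whose midpoints lay in other genes. The peak at RpL28, on 3L from 3220374 to 3220753 with a score of 12.80, had its midpoint in nSMase, which encodes a neutral sphingomyelinase. The peak at RpL13, on 2L from 9965939 to 9966713 with a score of 11.87, was the longest of the 46 at 775 bp, and its midpoint lay in Dref, which encodes a DNA-binding factor of proliferation-related genes. In contrast, the peak at RpL23A, on 3L from 1667428 to 1668081 with a score of 11.48, lay entirely inside the gene, 654 bp of it, and RpL23A holds 4 snoRNA genes. The remaining large subunit genes with a CAP-D3 peak included RpL40, RpL36A, RpL7, RpL24, RpL30, RpL23, RpL41, RpL8, RpLP0, RpL34a, RpL34b, RpL32 and RpL37-1. Their highest scores ran between 3.00 at RpL41 and 11.11 at RpL34b.

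RpLP0, RpLP1 and RpLP2 encode the stalk of the large subunit, to which elongation factors bind. RpLP0, the base of the stalk, had 2 CAP-D3 peaks on 3L. One lay inside the gene from 22076762 to 22077032 with a score of 5.31, and the other, from 22077305 to 22077722 with a score of 10.78, crossed an end of the gene with 183 bp inside it. That peak was the only one of the 46 whose midpoint lay outside a ribosomal protein gene by 200 bp or less. RpLP1 and RpLP2 had no peak in their windows, and the nearest CAP-D3 peaks were 2278 and 1490 bp away. RpL32, the fly gene also known as rp49 and widely used as a reference in qRT-PCR, had a peak of score 8.13 inside the gene and another of score 5.37 in its flank, whose midpoint lay in Sry-delta.

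Among small subunit genes, 15 of 37 had a CAP-D3 peak (40.5%, Wilson interval 26.3 to 56.5%), against a mean of 46.6% of similar-length genes. For the large subunit it was 20 of 50 (40.0%, 27.6 to 53.8%), against 50.3%. The shares of the 2 subunits differed by less than their intervals. The highest small subunit score was at RpS7, for a peak on 3R from 30205222 to 30205653 (score 12.90) with its midpoint outside genes. A weaker one, from 30208042 to 30208346 (score 7.44), lay inside RpS7. RpS10a followed with a peak from 27653009 to 27653323 on 3R with a score of 12.52. RpS10a is only 604 bp long and lies within the span of tau, which encodes a microtubule-associated protein, so this peak counts for both genes. RpS30, whose peak extended from 20851954 to 20852572 on 3R with a score of 12.11, had its peak midpoint in Ir93a, an ionotropic receptor gene. RpS2 had a peak of 383 bp wholly inside the gene, on 2L from 9896445 to 9896827 with a score of 11.28. RpS23, whose protein lies at the decoding center, had a peak of the same score on 2R from 14213782 to 14214420. Its midpoint lay outside genes, 995 bp from RpS23.

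The other small subunit genes with a CAP-D3 peak included RpS27A, RpS15, RpS18, RpS24, RpS29, RpS5b and RpS3. RpS27A and RpL40, the 2 genes whose products are made as fusions to ubiquitin, each had a peak in the flank, with scores of 10.42 and 9.55, and in neither case did the peak touch the gene. RpS29 had a peak on both sides of the gene and none inside, with scores of 11.13 and 11.23. RpS3, a ribosomal protein that has also been linked to DNA repair, had a peak of score 10.34 with its midpoint outside genes. No small subunit gene had an IgG peak, which allows a share of up to 8.11%, against a mean of 7.84% of similar-length genes, which lies under that limit.

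In 9 cases the annotation has a pair of copies of a gene, distinguished by a final letter or number. Of these 18 genes, 8 of them on the X, 6 had a CAP-D3 peak (33.3%, Wilson interval 16.3 to 56.3%), against a mean of 33.1% of similar-length genes. Both copies of RpL34 and both of RpL37 had one. The peak of RpL34a (score 10.36) and the stronger peak of RpL34b (score 11.11) lay inside the genes, and so did that of RpL37-1 (score 8.28), whereas that of RpL37-2 lay outside. RpS5b, which is expressed mainly in the germline, had a peak of score 5.76, while for RpS5a on the X the nearest was 41270 bp away. RpS10a had a peak, and for RpS10b, on the X, the nearest was 50359 bp away. Neither copy had a peak for RpL10A, RpS14, RpS15A, RpS19 and RpS28. In each of the 2 discordant pairs the copy without a peak lay on the X, so that copy and chromosome cannot be told apart.

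The X chromosome held 14 ribosomal protein genes, and RpL37-1 was the only one with a CAP-D3 peak (7.14%, Wilson interval 1.27 to 31.5%), against a mean of 16.7% of similar-length genes on the X. That peak extended from 15138890 to 15139260 and did not reach a score of 10. For X-linked members the median distance to the nearest CAP-D3 peak was 13562 bp, against 1154 bp for the 72 members on 2L, 2R, 3L and 3R. Among these X-linked genes without a peak is RpS6, whose protein is the substrate of S6 kinase, with a nearest peak at 11816 bp. RpS3A, the only member on chromosome 4, had its nearest CAP-D3 peak at 78397 bp, the largest distance of any member. No IgG peak lay at any of these 15 genes. Both lists are sparse on X and 4 as a whole, with 43.4 and 19.0 CAP-D3 peaks per Mb and 3.19 and 3.04 IgG peaks per Mb, against 193 and 35.1 over the 4 large autosomal arms.

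Among the 72 members on those arms, 34 had a CAP-D3 peak (47.2%, Wilson interval 36.1 to 58.6%), against 55.4% of similar-length genes. Chromosome arm 3R carried 22 of the 46 peaks, while windows of similar-length genes on 3R held 700 of the 2254 CAP-D3 peaks in all such windows. It also carried 7 of the 8 genes with 2 or more peaks, a count not made by arm for similar-length genes. Its 22 ribosomal protein genes had 296 CAP-D3 peaks per Mb of window (Poisson interval 186 to 449), against 270 for similar-length genes on 3R. For the 50 members on 2L, 2R and 3L the density was 138 (87.5 to 207), against 239 for similar-length genes there, and the interval lay below that value. The share of these 50 members with a CAP-D3 peak was 44.0% (22 genes, 31.2 to 57.7%), against 54.1% of similar-length genes, which lay inside the interval. With a score of at least 10, 10 of 22 members on 3R had a peak (45.5%, 26.9 to 65.3%), against 31.6% of similar-length genes, while on 2L, 2R and 3L it was 8 of 50 (16.0%, 8.34 to 28.5%), against 27.9%. The intervals of 3R and of the other arms overlapped in both counts. Without the members on 3R, the share with a CAP-D3 peak was 35.4%, against 45.4% of similar-length genes. The arms were singled out after their values had been seen, and no test of the difference was made.

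**Figure D2:**
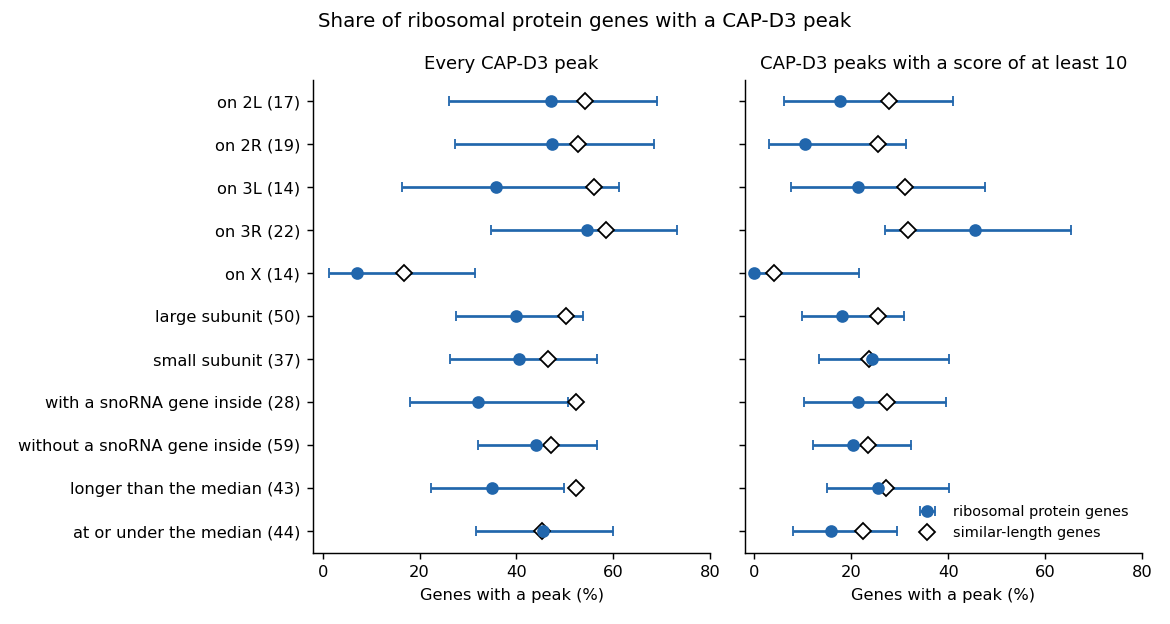
Share of ribosomal protein genes with a CAP-D3 peak (filled circles, with 95% Wilson intervals) and the mean share among the 50 genes nearest in length on the same chromosome (open diamonds), for every peak on the left and for those scoring 10 or more on the right. Numbers of genes are in parentheses. On the left every circle except that of genes at or under the median length lies to the left of its diamond, and on the right 3R (45.5% against 31.6%) and the small subunit (24.3% against 23.6%) lie to the right of theirs.

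When every peak was counted, longer ribosomal protein genes and those with snoRNA genes had at least 1 CAP-D3 peak less often than similar-length genes. Among the 43 members longer than 1333 bp, 15 had a peak (34.9%, Wilson interval 22.4 to 49.8%), against 52.2% of similar-length genes. Among the 44 members of 1333 bp or less, 20 had one (45.5%, 31.7 to 59.9%), against 45.3%. Of the 28 members that hold at least 1 snoRNA gene, 9 had a peak (32.1%, 17.9 to 50.7%), against 52.2%, and of the 59 without a snoRNA gene 26 had a peak (44.1%, 32.2 to 56.7%), against 47.1%. For longer genes and for snoRNA hosts the similar-length value lay above the interval. With a score of at least 10 it lay inside it in both groups (25.6% against 27.1% for longer genes and 21.4% against 27.4% for snoRNA hosts). Of the 28 snoRNA hosts, 23 were longer than 1333 bp, and the part of length and snoRNA content was not separated. RpS5a, with 14 snoRNA genes in a span of 4677 bp, and RpL5, the longest autosomal member at 4606 bp, had no peak. In contrast, RpS7 with 7 snoRNA genes had 2, and RpL3 with 4 snoRNA genes had 4.

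More of the CAP-D3 peaks counted had their midpoint in a flank than inside the ribosomal protein gene. The flanks, 1000 bp on both sides of a median span of 1333 bp, also made up the larger part of the windows. Of the 46 CAP-D3 peaks, 18 had their midpoint inside the ribosomal protein gene, at 16 genes, 23 in the flank and inside another gene, and 5 in the flank and outside genes. The span of the ribosomal protein gene itself was touched by 21 peaks, at 18 genes (20.7%, Wilson interval 13.5 to 30.4%), against 29.8% of similar-length genes. Thus 28 of the 46 peaks had their midpoint in a flank, mostly over a neighbor, and 79 of the 87 genes had another protein-coding gene in their window. The share with such a neighbor was not counted for similar-length genes, and the split between gene and flank was compared as densities only. Inside the spans the density of midpoints was 142 per Mb (Poisson interval 84.2 to 224), against 235 inside similar-length genes, a value just above the interval. At similar-length genes that density was higher than in each 200 bp bin of the flanks, which held 29.3 to 227 per Mb. At ribosomal protein genes the bins held 28.7 to 230 per Mb, on 1 to 8 midpoints each. In the 200 bp outside the gene ends the density dropped to 28.7 per Mb (0.728 to 160) at ribosomal protein genes and to 29.3 at similar-length genes. In the 200 bp inside the ends it was 28.8 (0.730 to 161) at ribosomal protein genes and 67.9 at similar-length genes. Each of these values for ribosomal protein genes rests on 1 midpoint. Between 600 and 800 bp inside the ends there was none, with an upper limit of 247 per Mb, against 272. Farther outside the genes the density was 230 per Mb between 800 and 1000 bp (99.2 to 453), against 227, and 210 per Mb between 5000 and 10000 bp (181 to 243), against 211. Other bins went in both directions, with 86.2 per Mb between 600 and 800 bp (17.8 to 252), against 183, and 255 between 2000 and 5000 bp (213 to 302), against 222. Scarcity near the ends was therefore present in the comparison genes as well. It was also present in the IgG list. At similar-length genes the IgG density was 6.90 per Mb in the 200 bp outside the ends and 12.7 in the 200 bp inside. Between 800 and 1000 bp outside it was 27.6. Scarcity near gene ends was thus not particular to CAP-D3. Which end is the promoter, and whether the peaks inside lie in exons or introns, was not analysed here.

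**Figure D3:**
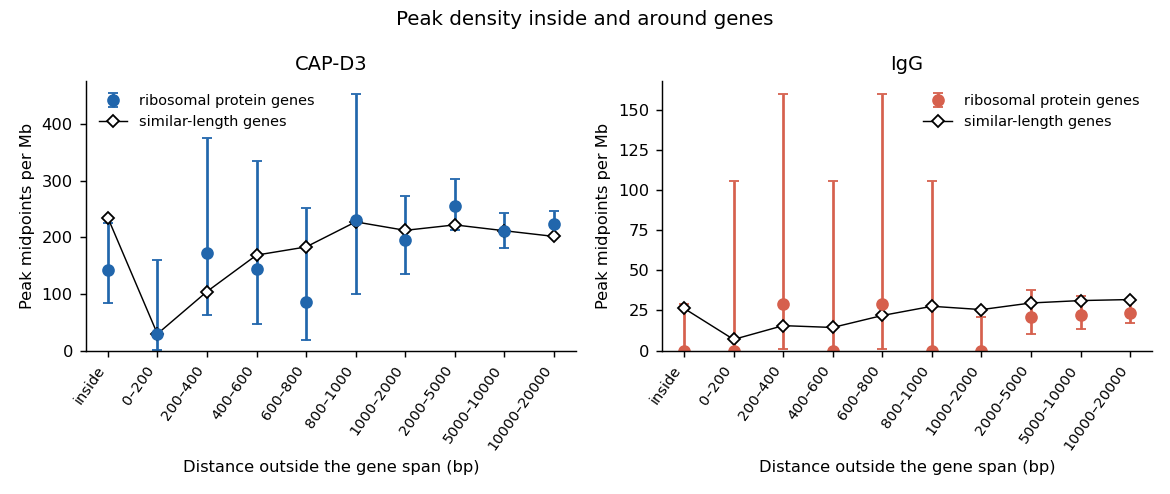
Density of peak midpoints per Mb inside the gene span and in bins of distance outside it, for ribosomal protein genes (filled circles, with 95% Poisson intervals) and similar-length genes (open diamonds), with CAP-D3 on the left and IgG on the right. Both gene sets have their lowest CAP-D3 density in the 200 bp next to the gene (28.7 against 29.3 per Mb), and inside the gene the circle (142) lies below the diamond (235).

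No IgG midpoint lay inside a ribosomal protein gene, which allows a density of up to 29.1 per Mb, against 26.3 inside similar-length genes. Between 1000 and 2000 bp from the genes there was also none, with an upper limit of 21.2 per Mb, against 25.5. From 10000 to 20000 bp the IgG density was 23.6 per Mb (16.9 to 32.0), against 31.8, and the CAP-D3 density was 222 per Mb (201 to 246), against 201 around similar-length genes. The median distance to the nearest IgG peak was 21909 bp for ribosomal protein genes and 11164 bp for similar-length genes, taken as the median of the matched sets. For CAP-D3 the distance was 1485 bp for ribosomal protein genes and 980 bp for similar-length genes.

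Of the 52 members without a CAP-D3 peak in their window, 15 had one within 2000 bp of the gene, 15 between 2000 and 5000 bp, 6 between 5000 and 10000 bp and 16 farther away, 10 of these on the X. This split was not counted for similar-length genes, so it describes the members only. The 5 nearest to a peak were RpL35A (1021 bp), RpS25 (1130 bp), RpS19b (1178 bp), RpL11 (1215 bp) and RpS27 (1233 bp), just outside the window. RpL36A (958 bp) and RpL23 (905 bp) were just inside it, so the window of 1000 bp divides genes with nearly the same distance. The 16 farther away included RpL38, RpL5, RpL21, RpS9 and RpL10 on 2L, 2R and 3L, with distances between 10164 and 13500 bp, and RpS3A on chromosome 4.

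Other gene lists fixed by symbol were counted in the same way. Genes for mitochondrial ribosomal proteins, which make up the separate ribosome of the mitochondrion, had a CAP-D3 peak in 26 of 73 cases (35.6%, Wilson interval 25.6 to 47.1%), against 44.4% of their own similar-length genes. The cytoplasmic set, at 40.2% against 48.7%, differed from its comparison by a similar amount, -8.48 percentage points beside -8.82 for the mitochondrial set. Translation factors (64.7% against 62.5%) and proteasome subunits (56.3% against 55.4%) lay close to their comparison, and oxidative phosphorylation genes were 10.9 percentage points above it (59.1%, 48.6 to 68.8%). Genes that serve differentiated tissues went in both directions, since cuticle protein genes of the Cpr family had a peak in 71.4% (59.95 to 80.7%), against 54.9%, and odorant and gustatory receptor genes in 43.7% (35.1 to 52.7%), against 57.2%. For IgG, the lowest raw shares of these lists rested on 1 or 2 genes each. They were the cytoplasmic ribosomal proteins (2.30% against 7.56%), mitochondrial ribosomal proteins (2.74%, 0.755 to 9.45%, against 7.15%) and proteasome subunits (2.08%, 0.369 to 10.9%, against 10.0%). In all of them the similar-length share lay inside the interval. The 4 genes left out for the ending -like comprised 2 with a CAP-D3 peak (Wilson interval of the share 15.0 to 85.0%), against 44.5% of similar-length genes, and 2 with an IgG peak, against 5.0%, and no direction was read from 4 genes. These differences between lists were not tested, and a share below that of similar-length genes was not particular to the cytoplasmic ribosomal proteins.

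**Figure D4:**
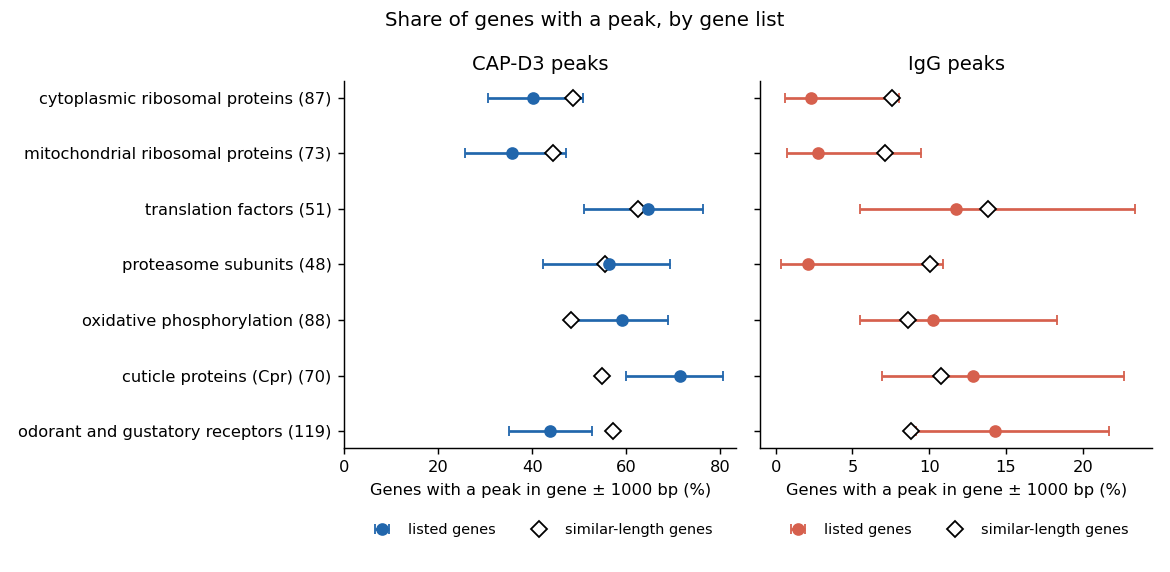
Share of genes with a CAP-D3 peak (left) or an IgG peak (right) in the gene extended by 1000 bp, for 7 gene lists (filled circles, with 95% Wilson intervals and numbers of genes in parentheses), beside the mean share of the 50 genes nearest in length on the same chromosome (open diamonds). The cytoplasmic ribosomal proteins, in the top row, lie at 40.2% against 48.7% for CAP-D3 and at 2.30% against 7.56% for IgG.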

How the data were processed

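Peak lists from ChIP-seq with CAP-D3 antibody or IgG were analysed as deposited. The authors trimmed and aligned reads and called peaks against input, and the submitters' processing notes name CASAVA 1.4, Trim Galore 0.3.7, cutadapt 1.8, FastQC 0.11.3, Bowtie 1.0.0 and MACS2 2.0.9. The deposited score is the −log10 of a p-value or q-value, and which of these is not given in the sources used here. Neither the genome build nor how the 2 samples per antibody were combined is given there. The score depends on depth, which is unknown, and therefore served only to filter and rank. Starts were converted to count from 1.

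Genes were taken from RefSeq's table for the assembly Release 6 plus ISO1 MT. Its spans fitted the peaks, since 2.75% of CAP-D3 midpoints lay within 150 bp of a gene end, against 7.96 to 8.94% after shifts of 500 or 2000 bp. For IgG it was 2.56%, against 5.44 to 6.87%. Gene coordinates are not printed, and strand, exons and sequences were not used here. The 50 comparison genes per member were the nearest in log length among other protein-coding genes of the same chromosome, and these sets share genes. Members, gene lists and groups were chosen with earlier results of these data known. The genes named were the members with a peak, apart from 4 that are counted but not reported here by name, with positions for the 10 highest-scoring and for those with an IgG peak, stalk genes, members on X and 4, close pairs and the 5 members nearest to a peak outside the window. Other genes named were chosen after their values were seen. Shares have 95% Wilson intervals and densities exact 95% Poisson intervals, which treat genes or peaks as independent. No test over samples was possible. For a count of 0 the limit was taken as 3 counts for shares and as the upper Poisson bound for densities. Overlap counting was tested on simulated data. Intervals were computed with scipy 1.17.1, tables with pandas 2.3.3 and numpy 2.4.6, and figures with matplotlib 3.10.9, in Python 3.11.15.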

Additional observations from a re-analysis of the deposited data

How the results depend on the processing

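No paired analysis was possible because 1 peak list per antibody was used, with no values of its samples, which also meant that no replicate could be left out. The share of ribosomal protein genes with a peak lay below that of similar-length genes in all 15 alternatives for CAP-D3, by -12.1 to -1.31 percentage points, and in all 15 for IgG, by -14.2 to -0.023. These include the removal of the 2 members inside another gene and of the members on 3R, both added after the data had been seen. The alternatives reuse the same genes and peak lists and are not independent. Where no member had a peak, the difference could not lie above 0. This was so for CAP-D3 at a score of 20, and for IgG at 20, without a flank and without shared peaks. For CAP-D3, 35 genes (40.2%) and 46 peaks became 20.7% and 21 peaks at a score of at least 10, 0% and 0 peaks at 20, 20.7% and 21 peaks without a flank, 57.5% and 85 peaks with a flank of 2000 bp, and 74.7% and 214 peaks with 5000 bp. The similar-length share lay inside the interval of the ribosomal protein genes in 14 of the 15 alternatives for CAP-D3, the exception being similar length on any chromosome (52.3%), and in 12 of 15 for IgG. The exceptions for IgG were similar length on any chromosome (8.53%) and flanks of 2000 bp (3.45% against 12.0%) and 5000 bp (10.3% against 24.5%). Without members on 3R, 24 CAP-D3 peaks and 1 IgG peak were left. For IgG, 2 genes (2.30%) and 2 peaks became 1 peak at a score of at least 10 (difference -0.437 percentage points), 0% and 0 peaks at 20 (-0.023), 0% and 0 peaks without a flank, 10.3% and 13 peaks with 5000 bp (-14.2), and 0% and 0 peaks without peaks shared with CAP-D3 (-1.38). Counts follow the threshold, the flank and the number of genes by construction. The unknown depth limits every comparison between antibodies.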
